A study of Homo sapiens with 15 samples.

Results

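The genes described here are 45 genes of DNA replication and mitosis, chosen by name, of 60671 genes in the count table. All 45 were found by symbol: 20 act in mitosis and 25 in DNA replication or the entry into S phase. Of these, 44 passed the expression filter (edgeR filterByExpr) and were tested, 19 of mitosis and 25 of replication, among 16160 tested genes. RNA from HT115, an established human colorectal cancer line, was sequenced as poly(A)-selected RNA in 5 groups of 3 libraries. The induced proteins were the SOX9 mutant M228, the truncated SOX9 M303, the SOX9 mutant M379, V5-tagged wild-type SOX9 (CSOX9) and GFP, the control. The sources used here do not say what M228 and M379 stand for. All groups, GFP included, carried a doxycycline-inducible construct and were induced with 0.5 µg/ml doxycycline for 24 h. The sources also do not say whether the cells of a group are 1 clone. The protocol and design text speak of 2 replicates, whereas the labels and the count table hold 3 libraries of each group, and the labels were followed. Separate cultures are not recorded for the 3 libraries of a group, so a p-value here reflects the spread between libraries, whether technical or not.

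SOX9, the induced gene, was measured first. SOX9 stood at 1899.9, 2032 and 2383 CPM in M228, 2949, 3038 and 3039 in M303, 2034, 2329 and 2282 in M379, 243, 210.2 and 186 in CSOX9, and 97.6, 100.77 and 158 in GFP. Every mutant library lay above every CSOX9 library, and every CSOX9 library lay above every GFP library. The construct sequences were not used here, so whether every transcript of a construct was counted as SOX9, that of wild-type SOX9 included, was not tested. CPM here is the usual depth-scaled count after TMM scaling. Library totals reached 31704249 reads in M303 replicate 1 and were lowest in GFP replicate 1, with 3054755 reads. All 11 colorectal epithelial markers had reads in every group, with a summed level of 11339 to 26292 CPM per library. The 15 markers of blood, vessel and stromal cells summed to 4.26 to 6.92 CPM, and CD3E, LYVE1, CDH5 and PDGFRA had no read in any library. GFP replicate 2 stood apart from the other libraries in the weight that limma voom gave it, 0.0748, and the median dispersion was 0.0104 to 0.0232 within the SOX9 groups and 0.0975 within GFP. For the comparisons with GFP, the calls, the counts at an unadjusted p, the list medians and the named estimates are therefore also given without that library.

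DNA replication starts when CDC6 and CDT1 load the ring-shaped MCM helicase on DNA. CDC45 and the GINS complex then join the ring and polymerases copy both strands, with PCNA as sliding clamp. Mitosis is driven by CDK1 with its cyclins, by Aurora and Polo kinases, and by a checkpoint that holds CDC20 until the chromosomes are attached to the spindle. Transcripts of replication genes are made largely around the start of S phase under E2F control. Those of mitosis genes peak in G2 and M, under factors that read CCAAT boxes and the cell cycle homology region (CHR, TTTGAA). In bulk RNA, fewer cycling cells and less of these transcripts per cycling cell cannot be told apart.

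The promoters below are shown because the letters they hold split the 2 gene lists. RefSeq promoter windows (GRCh38.p14, 300 bases, 250 before and 50 after each start) were matched by symbol for 17 mitosis genes with 19 windows and 22 replication genes with 28 windows. AURKA, BIRC5, TPX2, MCM4, MCM5 and CCNE2 had no entry. The motifs searched on both strands were the CCAAT box, the CHR spelled TTTGAA, and an E2F core spelled as TTCCCGC or TTCGCGC or TTGCCGC or TTGGCGC. Where the box is read as ATTGG it can overlap an E2F core, and an E2F core can be read on both strands of 1 place. TTTGAA was in 63.2% of the mitosis windows, in 3.57% of the replication windows and in 15.2% of all 35116 windows of the table. The E2F core was in 21.1% of the mitosis windows, in 71.4% of the replication windows and in 13% of all windows. CCAAT was in 89.5% of the mitosis windows, in 67.9% of the replication windows and in 34.6% of all windows. CCAAT and TTTGAA stood together in 57.9% of the mitosis windows and in 5.9% of all windows. Among 50 other mitosis genes, 44 were matched, and 60% of their 55 windows held TTTGAA. Among 40 other replication genes, 33 were matched, and 51.1% of their 45 windows held the E2F core. The 250 bases before the start of 4 genes follow, 5′ to 3′ on the gene's strand, with motif matches on either strand in capitals: CDC20 (chr1:43358731-43358980, plus strand), CDK1 (chr10:60778081-60778330, plus strand), MCM6 (chr2:135876444-135876693, minus strand) and CDC6 (chr17:40287629-40287878, plus strand).
CDC20 promoter: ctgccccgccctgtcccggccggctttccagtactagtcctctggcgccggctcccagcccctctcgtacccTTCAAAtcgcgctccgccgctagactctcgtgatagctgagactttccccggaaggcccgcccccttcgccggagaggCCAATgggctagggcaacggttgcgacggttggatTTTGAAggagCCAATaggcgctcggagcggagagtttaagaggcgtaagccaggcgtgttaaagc
CDK1 promoter: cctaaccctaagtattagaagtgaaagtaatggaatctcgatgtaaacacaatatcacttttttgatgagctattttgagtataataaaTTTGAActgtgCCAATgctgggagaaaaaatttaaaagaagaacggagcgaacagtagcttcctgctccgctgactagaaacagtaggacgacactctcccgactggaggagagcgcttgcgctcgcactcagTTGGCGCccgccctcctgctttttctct
MCM6 promoter: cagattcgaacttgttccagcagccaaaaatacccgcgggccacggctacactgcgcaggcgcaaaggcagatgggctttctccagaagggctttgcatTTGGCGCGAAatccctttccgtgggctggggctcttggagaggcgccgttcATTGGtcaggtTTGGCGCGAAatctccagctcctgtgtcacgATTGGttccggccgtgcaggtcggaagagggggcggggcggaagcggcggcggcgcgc
CDC6 promoter: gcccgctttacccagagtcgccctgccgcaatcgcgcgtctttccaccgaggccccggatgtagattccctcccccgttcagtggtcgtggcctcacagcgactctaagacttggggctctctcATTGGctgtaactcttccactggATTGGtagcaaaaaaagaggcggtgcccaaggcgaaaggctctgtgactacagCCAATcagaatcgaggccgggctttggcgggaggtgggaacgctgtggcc

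CDC20, the activator of the ligase that ends mitosis, holds 2 CCAAT and 2 TTTGAA matches in these bases, 1 TTTGAA being read as TTCAAA. CDK1, the kinase of mitotic entry, holds 1 of each of the 3 motifs. MCM6, a subunit of the MCM ring, holds 2 CCAAT matches, both read as ATTGG, and 4 E2F core matches, which are 2 places each read on both strands. CDC6 holds 3 CCAAT matches and no E2F core in the spellings searched here, and its 1 E2F core match lies in the 50 bases after the start. Other spellings of an E2F site, such as the ttggcgg in the CDC6 bases shown, were not searched. A match is a string of letters and does not show binding.

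Both lists were among the more abundant transcripts of these cells. The median level of the 19 tested mitosis genes was 31.0 CPM per kb of exons, above the level of 90.8% of all tested genes, and that of the 25 replication genes was 32.3 CPM per kb, above 91.3%. The median of all tested genes was 3.83 CPM per kb. The exon bases are the union over all annotated transcripts, which lowers the level per kb of RRM2 (9155 bases), MCM5 (7268) and POLE (16790). PCNA was the highest member at 237 ± 33.0 CPM per kb (SD over the 15 libraries), followed by MCM3 at 128 ± 11.7 and MCM7 at 123 ± 13.9. The lowest tested members were CCNE2 at 1.96 ± 0.547, POLE2 at 4.21 ± 0.546 and CCNE1 at 4.29 ± 0.867 CPM per kb. MCM3 and MCM7 did not differ beyond their spread, nor did POLE2 and CCNE1. NUSAP1, which binds spindle microtubules, was the member left untested, with 0 to 0.699 CPM. Of its exon bases 81.4% are shared on the same strand with ENSG00000285920, and reads over exons of 2 genes were not counted, so its level is not a measure of its expression. Strand was not used in counting either: TYMS shares 47.5% of its exon bases with genes on the opposite strand, CCNE2 37.1% and MCM2 23.6%. PRIM1 shares 17.5% and BUB1B 10.2% of their exon bases with genes on the same strand. Reads over such shared bases were not counted, which lowers these levels per kb, that of CCNE2 included. The size of that loss was not tested, and the values are uncertain to that extent.

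**Figure D1:**
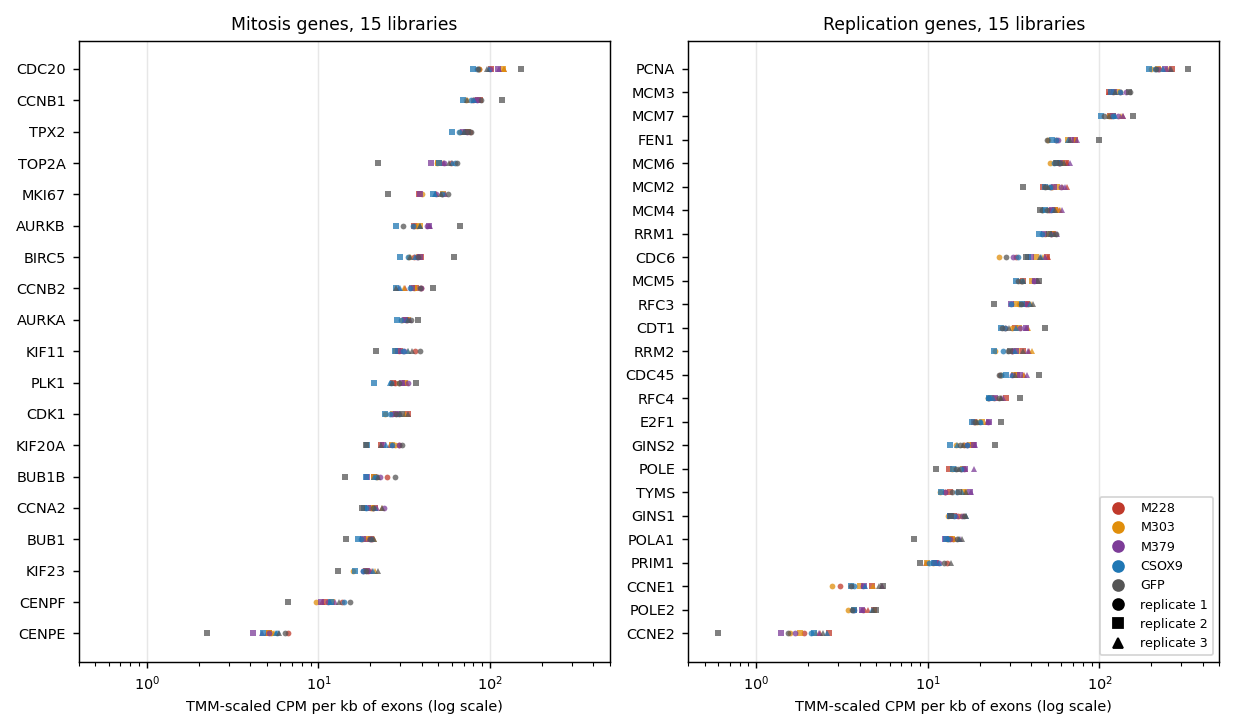
Level of each tested mitosis gene (left) and replication gene (right) in each of the 15 libraries, as TMM-scaled CPM per kb of exons on a log axis, with colour for the group and shape for the replicate number. The genes span a far wider range than the libraries do within a gene, and GFP replicate 2 (grey square) lies at an end of many rows, for example at the low end for TOP2A, CENPE and CCNE2.

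GFP replicate 2 departed from GFP replicates 1 and 3 in step with gene length. Over the 44 tested members its log2 deviation from the mean of all libraries had a Spearman correlation of -0.70 with exon bases, and -0.49 over all tested genes; the points share this library and its depth. In the other 14 libraries this correlation was -0.39 to 0.49 over the members and -0.26 to 0.20 over all tested genes, the deviations being taken from a mean that includes GFP replicate 2. Against the mean of GFP replicates 1 and 3, the 15 shortest members were higher by a median of 0.46 on the log2 scale, with 11 of 15 above 0, and the 14 longest lower, at -0.58, with 3 of 14 above 0. Over all tested genes the shortest and the longest genes, split the same way, read 0.48 and -0.49. TOP2A had 142 CPM in GFP replicate 2, against 407 and 368 CPM in GFP replicates 1 and 3. AURKB, a short gene, had 149.9 CPM in GFP replicate 2, against 69.6 and 87.6 CPM in GFP replicates 1 and 3. The same library was thus low for one gene and high for the other. GFP replicate 2 held the lowest of the 15 levels for 10 of 19 mitosis and 7 of 25 replication genes, and the highest for 7 and 11. CSOX9 replicate 2 held the lowest level for 8 genes of each list, and its list medians were -0.20 for mitosis and -0.16 for replication on the log2 scale relative to the mean of the 15 libraries, against 0.01 for all tested genes. The correlation with exon bases in CSOX9 replicate 2 was 0.48 over the members and 0.19 over all tested genes, and its part in these medians was not tested.

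**Figure D2:**
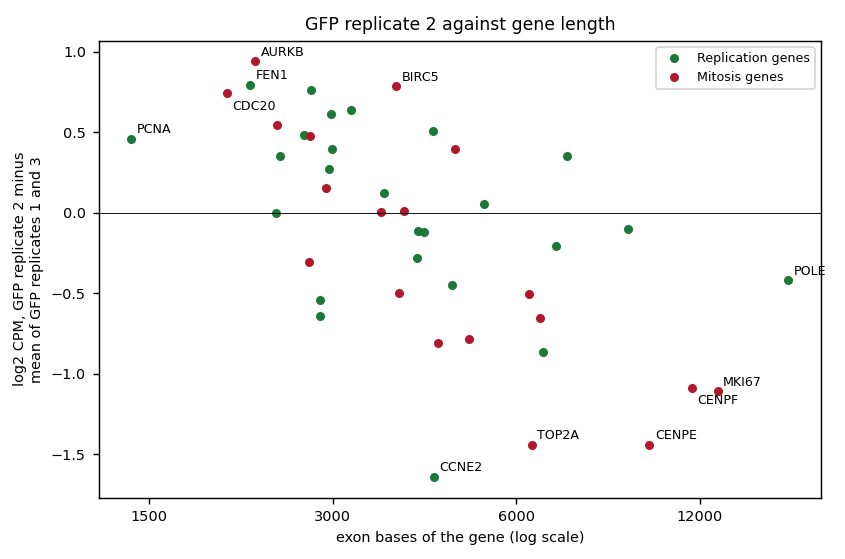
Log2 CPM of GFP replicate 2 minus the mean of GFP replicates 1 and 3 for the 44 tested genes (vertical axis) against exon bases on a log axis (horizontal), replication genes in green and mitosis genes in red. Short genes such as AURKB, FEN1 and CDC20 lie above 0, and long genes such as MKI67, CENPE and CENPF lie below it.

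Among the mitosis genes, the 2 chromosome proteins were MKI67, the proliferation marker that coats mitotic chromosomes (ENSG00000148773, chromosome 10, 128096659 to 128126423, minus strand, GRCh38), and TOP2A, the topoisomerase that untangles sister DNA (ENSG00000131747, chromosome 17, 40388525 to 40417896, minus strand). MKI67 stood at 675, 498 and 624 CPM in M228, 518, 686 and 625 in M303, 619.6, 504 and 699 in M379, 671, 597 and 613 in CSOX9, and 734, 325 and 666 in GFP. TOP2A read 377.77, 321 and 327 CPM in M228, 313, 316 and 341 in M303, 343, 289.6 and 345 in M379, 396, 323 and 383 in CSOX9, and 407, 142 and 368 in GFP. For both genes the 5 groups overlapped, and the GFP group held both the highest and the lowest library. MKI67 averaged 599 ± 91.1 CPM in M228, 609.7 ± 85.4 in M303, 608 ± 98.4 in M379, 627 ± 38.7 in CSOX9 and 575 ± 219 in GFP (SD, n = 3 each).

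Groups without overlap are named here and in the next paragraphs as a description of levels. Over all tested genes, 2.28% to 9.75% lay without overlap in 1 direction in a given pair of groups. The share for each pair is given below with the count of members. For CDK1 and cyclin A2 no pair of groups separated, and for cyclin B1 1 pair did. CCNB1 stood at 193, 214 and 195 CPM in M228, 177, 207 and 206 in M303, 205, 206 and 199 in M379, 189, 168 and 195 in CSOX9, and 215, 286 and 179 in GFP. CCNB1 encodes cyclin B1, the CDK1 partner of mitotic entry, and its M379 libraries all lay above its CSOX9 libraries. CCNA2 stood at 56.8, 58.6 and 57.7 CPM in M228, 55.6, 55.4 and 64.7 in M303, 65.8, 53.6 and 60.6 in M379, 51.9, 50.9 and 58.8 in CSOX9, and 57.5, 49.0 and 64.1 in GFP. Cyclin A2, encoded by CCNA2, acts in S phase and G2, and its groups overlapped. CDK1 stood at 115, 131 and 113 CPM in M228, 95.9, 107 and 125 in M303, 106, 111 and 114 in M379, 103, 95.9 and 117 in CSOX9, and 111, 121 and 131 in GFP. CDK1 overlapped in every pair of groups, and its highest library was 1.37-fold above its lowest. CCNB2, the other B-type cyclin, ranged over 77.8 to 127 CPM.

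Several kinase and checkpoint genes had groups that did not overlap, which is to be read beside the shares over all tested genes. PLK1 stood at 133, 129 and 153 CPM in M228, 139, 152 and 156 in M303, 158, 147 and 149 in M379, 125, 100.2 and 124 in CSOX9, and 140.5, 176 and 127 in GFP. PLK1, the Polo kinase of mitotic entry and spindle assembly, was below every mutant library and every GFP library in all 3 CSOX9 libraries. AURKB stood at 81.2, 81.1 and 98.2 CPM in M228, 84.4, 87.6 and 99.3 in M303, 95.5, 98.6 and 99.7 in M379, 79.7, 63.5 and 87.7 in CSOX9, and 69.6, 149.9 and 87.6 in GFP. AURKB, the kinase of the chromosomal passenger complex, lay higher in all M379 libraries than in all CSOX9 libraries, and its highest value was GFP replicate 2. BIRC5 stood at 137, 152 and 149 CPM in M228, 129, 147 and 149 in M303, 142, 149.7 and 147 in M379, 126, 113 and 139 in CSOX9, and 144, 237 and 130.4 in GFP. BIRC5, or survivin, a partner of AURKB in that complex, showed the same order of M379 above CSOX9 and the same high GFP replicate 2.

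CDC20 stood at 174, 203 and 243 CPM in M228, 174, 239 and 242 in M303, 201, 225 and 228.16 in M379, 168, 159.7 and 199 in CSOX9, and 170.0, 302.65 and 193 in GFP. CDC20 too lay higher in all M379 than in all CSOX9 libraries. AURKA stood at 96.6, 94.9 and 95.8 CPM in M228, 89.7, 96.8 and 96.9 in M303, 94.8, 93.6 and 100.1 in M379, 88.3, 83.7 and 96.3 in CSOX9, and 102, 111 and 97.3 in GFP. AURKA, the Aurora kinase of the spindle poles, lay lower in all M228, M303 and CSOX9 libraries than in all GFP libraries, by small amounts: -0.11, -0.13 and -0.21 on the log2 scale. BUB1 stood at 129.9, 128 and 121 CPM in M228, 114, 122 and 133 in M303, 127, 115 and 123 in M379, 112, 107 and 128 in CSOX9, and 126, 91.4 and 133 in GFP. BUB1 and BUB1B encode kinase-related proteins of the spindle checkpoint, and both overlapped in every pair of groups. BUB1B stood at 111, 94.6 and 94.3 CPM in M228, 97.2, 94.2 and 95.4 in M303, 102, 85.6 and 98.3 in M379, 96.7, 84.1 and 93.6 in CSOX9, and 124, 63.3 and 99.3 in GFP.

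The tested kinetochore and spindle genes other than TPX2 had their lowest level in GFP replicate 2. CENPF stood at 160.3, 128 and 123 CPM in M228, 113, 139 and 134 in M303, 133, 121 and 145 in M379, 165, 138 and 136 in CSOX9, and 177, 77.3 and 154 in GFP. KIF11 stood at 183, 149 and 145 CPM in M228, 147, 143 and 167 in M303, 158, 145 and 152 in M379, 155, 140.1 and 166 in CSOX9, and 197, 108 and 176 in GFP. CENPF is a large kinetochore protein and KIF11 the kinesin that pushes spindle poles apart, and neither separated any pair of groups. CENPE stood at 65.6, 51.4 and 49.7 CPM in M228, 52.6, 50.9 and 54.5 in M303, 51.1, 41.0 and 46.5 in M379, 56.9, 47.4 and 55.8 in CSOX9, and 63.6, 22.3 and 58.2 in GFP. KIF20A stood at 113, 89.3 and 100.96 CPM in M228, 107, 104 and 104 in M303, 114, 91.5 and 104 in M379, 103, 73.4 and 95.3 in CSOX9, and 119, 73.1 and 89.6 in GFP. CENPE is the kinetochore motor and overlapped in every pair of groups, while KIF20A, a kinesin of cytokinesis, lay higher in all M303 than in all CSOX9 libraries. KIF23, another kinesin of cytokinesis, ranged over 85.9 to 146 CPM, and TPX2, an activator of AURKA, over 215 to 280.1 CPM, with all M228 libraries above all CSOX9 libraries.

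Of the replication genes, the MCM subunits MCM3 and MCM7 had the highest levels per kb after PCNA. MCM2 stood at 246, 222 and 302.997 CPM in M228, 249, 265 and 286 in M303, 282, 257 and 296 in M379, 242, 226 and 242 in CSOX9, and 227, 169 and 236 in GFP. MCM2 (ENSG00000073111, chromosome 3, 127598410 to 127622436, plus strand, GRCh38) lay higher in all M303 and all M379 libraries than in all CSOX9 and all GFP libraries. MCM5 stood at 253, 262 and 319 CPM in M228, 256, 294 and 314 in M303, 302, 306 and 320.4 in M379, 257, 238 and 261 in CSOX9, and 244, 321 and 259.8 in GFP. MCM7 stood at 509.5, 508 and 600.1 CPM in M228, 496, 529 and 588 in M303, 565, 527 and 603 in M379, 527, 449 and 537 in CSOX9, and 468, 688 and 499.8 in GFP. MCM5 lay higher in all M379 than in all CSOX9 libraries, and MCM7 overlapped in every pair of groups. MCM3 stood at 437, 412 and 417 CPM in M228, 478, 459.9 and 445 in M303, 517, 445 and 484 in M379, 482, 424 and 447 in CSOX9, and 550.1, 539.7 and 449 in GFP. MCM3 was lower in all M228 libraries than in all M303, M379 and GFP libraries. MCM4 ranged over 315 to 422 CPM and MCM6 over 212 to 278 CPM, both overlapping in every pair of groups.

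The licensing and helicase activation genes were led by CDC6 (ENSG00000094804, chromosome 17, 40287879 to 40304657, plus strand, GRCh38), which helps load the MCM ring. CDC6 stood at 174, 262 and 266 CPM in M228, 137, 225 and 250.3 in M303, 167, 213 and 255 in M379, 177, 203 and 243 in CSOX9, and 151, 198 and 240.2 in GFP. In every group replicate 1 held the lowest CDC6 level, and no pair of groups separated. CDT1 stood at 77.9, 89.1 and 105 CPM in M228, 84.8, 93.5 and 105 in M303, 95.2, 104 and 104 in M379, 78.0, 73.6 and 90.5 in CSOX9, and 74.2, 133 and 82.4 in GFP. GINS2 stood at 52.6, 59.0 and 54.4 CPM in M228, 47.1, 56.8 and 52.2 in M303, 54.8, 59.8 and 60.9 in M379, 54.2, 43.2 and 47.9 in CSOX9, and 49.9, 78.8 and 51.5 in GFP. CDT1, the other loader, and GINS2, of the complex that joins the active helicase, lay higher in all M379 than in all CSOX9 libraries. CDC45 stood at 78.1, 98.7 and 108 CPM in M228, 79.2, 95.1 and 107 in M303, 91.9, 103 and 112 in M379, 79.9, 84.6 and 92.3 in CSOX9, and 77.9, 132 and 96.2 in GFP. CDC45, which completes the active helicase, was lowest in replicate 1 of every group. GINS1 ranged over 53.8 to 69.1 CPM.

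PCNA stood at 312, 371 and 343 CPM in M228, 279, 308 and 349.7 in M303, 308, 339.9 and 361 in M379, 294, 272 and 329.8 in CSOX9, and 301, 457 and 367 in GFP. PCNA, the sliding clamp, overlapped in every pair of groups, with its lowest level in CSOX9 replicate 2 and its highest in GFP replicate 2. FEN1 stood at 123, 157 and 158 CPM in M228, 110.3, 145 and 159 in M303, 126, 151 and 164 in M379, 122, 117 and 144 in CSOX9, and 108, 219.6 and 148 in GFP. FEN1, the nuclease that trims flaps between lagging-strand fragments, had its highest and its lowest level within GFP. POLE stood at 262, 223 and 278 CPM in M228, 232, 269 and 273 in M303, 274, 276 and 310.0 in M379, 263, 236 and 246 in CSOX9, and 246, 187 and 254 in GFP. POLE, the catalytic subunit of the leading-strand polymerase, lay higher in all M379 libraries than in all M303, CSOX9 and GFP libraries. POLE2 stood at 12.4, 14.4 and 13.2 CPM in M228, 10.1, 11.0 and 14.4 in M303, 11.0, 12.3 and 12.2 in M379, 10.8, 11.0 and 13.9 in CSOX9, and 10.6, 14.8 and 14.1 in GFP. POLA1 stood at 93.5, 89.7 and 91.8 CPM in M228, 85.5, 91.5 and 99.98 in M303, 89.5, 83.2 and 102 in M379, 87.2, 84.2 and 100.2 in CSOX9, and 97.6, 55.3 and 104 in GFP. POLE2, its second subunit, lay higher in all M228 than in all M379 libraries, and POLA1, which starts new strands with primase, overlapped in every pair. The clamp loader genes RFC3 and RFC4 ranged over 69.5 to 118 and 67.0 to 104 CPM, and the primase gene PRIM1 over 25.6 to 39.0 CPM. RFC4 lay lower in all M303 and all CSOX9 libraries than in all GFP libraries.

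Of the genes of nucleotide supply, only RRM1 separated a pair of groups. RRM1 stood at 221, 227.65 and 231 CPM in M228, 203, 222 and 230.1 in M303, 219.7, 201 and 238 in M379, 197, 188 and 219.7 in CSOX9, and 235, 215 and 231 in GFP. RRM2 stood at 282, 329 and 355 CPM in M228, 225, 304 and 368 in M303, 283, 297 and 352 in M379, 252, 221 and 296 in CSOX9, and 269, 277 and 327 in GFP. RRM1 and RRM2 encode the large and small subunit of ribonucleotide reductase. RRM1 lay higher in all M228 than in all CSOX9 libraries and RRM2 overlapped in every pair. TYMS stood at 30.5, 32.5 and 39.7 CPM in M228, 28.6, 39.1 and 39.6 in M303, 30.5, 42.9 and 42.9 in M379, 35.9, 28.9 and 38.12 in CSOX9, and 33.5, 36.7 and 40.5 in GFP. TYMS, thymidylate synthase, overlapped in every pair, and its opposite-strand overlap limits the value.

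Among the G1/S regulators, E2F1 stood at 50.1, 50.1 and 59.5 CPM in M228, 52.0, 55.9 and 59.6 in M303, 60.1, 61.3 and 60.5 in M379, 54.0, 48.5 and 55.1 in CSOX9, and 50.5, 71.7 and 52.3 in GFP. E2F1, the transcription factor of S phase entry, lay higher in all M379 than in all M228, M303 and CSOX9 libraries. CCNE1 stood at 7.56, 11.6 and 13.2 CPM in M228, 6.78, 9.86 and 11.9 in M303, 10.3, 10.4 and 13.4 in M379, 9.09, 8.75 and 10.6 in CSOX9, and 8.82, 13.5 and 12.7 in GFP. CCNE2 stood at 8.39, 11.7 and 10.3 CPM in M228, 6.90, 7.89 and 9.87 in M303, 7.38, 6.11 and 10.2 in M379, 9.19, 9.57 and 11.4 in CSOX9, and 6.69, 2.64 and 10.8 in GFP. The cyclin E genes CCNE1 and CCNE2, partners of CDK2 at S phase entry, were the least abundant tested members per kb together with POLE2, and both overlapped in every pair of groups. CCNE2 varied most of all members, 4.44-fold between M228 replicate 2 and GFP replicate 2.

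Wild-type SOX9 was set against GFP to ask whether its induction alters the cell cycle transcripts. No member was called at an adjusted p under 0.05 by edgeR's quasi-likelihood test, where 0.0309% of all tested genes were called, and none was called by DESeq2 or limma voom. At an unadjusted p under 0.05 stood 2 mitosis and 2 replication genes, all lower in CSOX9, or 4 of 44, where 10.7% of all tested genes reached that mark. Groups did not overlap for 3 members, all lower in CSOX9 (AURKA, PLK1 and RFC4), where 5.15% of all tested genes were lower without overlap, and 0 members were higher (6.6%). The 4 genes past the unadjusted mark were PLK1 (-0.34 ± 0.14, log2 fold change ± SE, edgeR adjusted p = 0.447), BIRC5 (-0.44 ± 0.18, adjusted p = 0.447), PCNA (-0.33 ± 0.15, adjusted p = 0.464) and RFC4 (-0.34 ± 0.13, adjusted p = 0.446). The median log2 fold change was -0.08 over the mitosis and -0.13 over the replication genes, and 0.01 over all tested genes. CCNE2 had the largest positive estimate, 0.55 ± 0.35.

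Without GFP replicate 2, again no member was called in CSOX9 minus GFP (0% of all tested genes), and 2 mitosis and 2 replication genes stood at an unadjusted p under 0.05, where 6.23% of all tested genes did. None of the 4 was among those above. They were KIF11 (-0.28 ± 0.12), BUB1B (-0.27 ± 0.12), PRIM1 (-0.27 ± 0.12) and RRM1 (-0.21 ± 0.10), all lower in CSOX9, with edgeR adjusted p-values of 0.728 to 0.792. PLK1 was then -0.19, BIRC5 -0.12, PCNA -0.16, RFC4 -0.19, AURKA -0.15 and CCNE2 0.10. The median over the mitosis genes was -0.17 without that library, with 19 of 19 below 0, against 14 of 19 with it. That over the replication genes was -0.09, with 18 of 25 below 0, and that over all tested genes was 0.00275. The genes of a list share these libraries, CSOX9 replicate 2 with its low medians included, and varied together. The 19 are thus not separate results.

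Each mutant was set against GFP in the same model. In none of the 3 comparisons was a member called by edgeR, DESeq2 or limma voom; edgeR called 0.241% of all tested genes for M228, 0.118% for M303 and 0.0371% for M379. At an unadjusted p under 0.05, M228 had 1 replication gene, MCM3 (-0.28 ± 0.12, edgeR adjusted p = 0.471), where 9.38% of all tested genes reached that mark. M303 had 2 such replication genes against 7.8% of all tested genes: MCM2, higher (0.34 ± 0.14, adjusted p = 0.599), and RFC4, lower (-0.30 ± 0.13, adjusted p = 0.608). M379 had 2 against 6.77%, both higher: MCM2 (0.40 ± 0.14, adjusted p = 0.63) and POLE (0.33 ± 0.14, adjusted p = 0.716). All 3 libraries lay lower in the mutant for AURKA and MCM3 in M228 (4.22% of all tested genes) and for AURKA and RFC4 in M303 (3.87%), and higher for MCM2 in M303 (5.5%) and for MCM2 and POLE in M379 (4.9%). No member was higher without overlap in M228 (5.32% of all tested genes) or lower in M379 (3.84%). With all libraries, 0 mitosis genes reached the unadjusted mark in these 3 comparisons. The medians were -0.01, -0.03 and -0.03 over the mitosis genes and -0.03, -0.05 and 0.05 over the replication genes for M228, M303 and M379. CSOX9 and the mutants share the GFP libraries in these 4 comparisons.

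Without GFP replicate 2, still no member was called against GFP in M228, M303 or M379 (0.228%, 0.102% and 0.0481% of all tested genes), and the genes at an unadjusted p under 0.05 were in part others. For M303 these were 4, where 9.42% of all tested genes did, all lower in M303: the mitosis genes TOP2A (-0.27 ± 0.12, adjusted p = 0.499), CENPF (-0.36 ± 0.14, adjusted p = 0.428) and KIF11 (-0.29 ± 0.12, adjusted p = 0.443), and the primase gene PRIM1 (-0.32 ± 0.12, adjusted p = 0.42), by edgeR. For M379 these were 8, where 11.4% did. The mitosis genes TOP2A (-0.25 ± 0.12), CENPE (-0.39 ± 0.13), CENPF (-0.31 ± 0.14) and KIF11 (-0.30 ± 0.12) were lower in M379. The replication genes MCM2 (0.26 ± 0.12), MCM5 (0.29 ± 0.11), CDT1 (0.35 ± 0.13) and E2F1 (0.23 ± 0.10) were higher in M379, and the 8 had edgeR adjusted p-values of 0.302 to 0.424. For M228 there was 1, where 8.91% did: MCM3, at -0.24 ± 0.10. MCM2 in M303 was then 0.20, RFC4 in M303 -0.16 and POLE in M379 0.19, none of them at the unadjusted mark. AURKA, without overlap above, was -0.05 in M228 and -0.08 in M303. TOP2A, lower in M303 and M379 without that library, was not lower with it. Its mean over all libraries of a group was 323 CPM in M303 and 326 in M379, against 306 in GFP. The largest estimates of mitosis genes with all libraries changed sign. AURKB in M228 was 0.13 without that library, against -0.25 with it. BIRC5 in M303 was 0.05, against -0.27 with it, and BIRC5 in M379 was 0.09, against -0.22 with it. Among the largest estimates of replication genes, CCNE2 in M228 was 0.10, against 0.56 with it, and CCNE1 in M303 was -0.26, against -0.35 with it. The medians without that library were -0.04, -0.08 and -0.05 over the mitosis genes and 0.05, -0.08 and 0.04 over the replication genes for M228, M303 and M379.

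Each mutant was also set against CSOX9, which asks what the mutations alter relative to the wild-type protein, at counts of the SOX9 gene that differed as given above. Most members had estimates above 0: for M228, 16 of 19 mitosis and 23 of 25 replication genes; for M303, 14 and 20; and for M379, 14 and 21. The medians were 0.13 and 0.14 for M228, 0.08 and 0.06 for M303, and 0.10 and 0.16 for M379, against 0.01, 0.01 and 0.00436 over all tested genes. These 3 comparisons share the CSOX9 libraries, of which replicate 2 was low for both lists. No member was called by edgeR or DESeq2, where edgeR called 0.569% of all tested genes for M228, 0.384% for M303 and 0.124% for M379. At an unadjusted p under 0.05 stood 0 members for M228 (6.65% of all tested genes), 1 for M303 (6.31%) and 2 for M379 (4.7%). PLK1 was counted for both M303 and M379, and MCM5 for M379. All 3 libraries of the mutant lay above all 3 of CSOX9 for 11 of 44 members in M379, 5 of mitosis and 6 of replication, where 9.75% of all tested genes did so. The same held for 4 members in M228 (7.12% of all tested genes) and 3 in M303 (9.51%), and no member lay below CSOX9 without overlap in any mutant (8.61%, 9% and 9.48% of all tested genes in M228, M303 and M379). The 11 in M379 were CCNB1, AURKB, PLK1, CDC20, BIRC5, MCM2, MCM5, GINS2, CDT1, POLE and E2F1.

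PLK1 had the largest estimate of the mitosis genes in all 3: 0.25 ± 0.14 in M228, 0.35 ± 0.14 in M303 and 0.38 ± 0.14 in M379 (log2 ± SE, edgeR adjusted p = 0.913, 0.56 and 0.737). MCM5 stood at 0.30 ± 0.13 in M379 (edgeR adjusted p = 0.979). Among the replication genes RRM2 had the largest estimate in M228 (0.33 ± 0.17), and CCNE2 in M303 (-0.29 ± 0.33) and M379 (-0.34 ± 0.34), neither of them called. With limma voom and a quality weight per library, 3 members were called in M303, all higher than in CSOX9, where 7.44% of all tested genes were called: PLK1 (0.46, voom adjusted p = 0.00467), CDC20 (0.45, 0.017) and MCM5 (0.27, 0.0435). In M379 it called 5 members, all higher, where 4.38% of all tested genes were called: PLK1 (0.44, voom adjusted p = 0.0117), MCM5 (0.34, 0.0227), GINS2 (0.36, 0.0331), AURKB (0.45, 0.0369) and CDT1 (0.37, 0.0405). In M228 voom called 0 members, where 2.9% of all tested genes were called. The 95% intervals of the edgeR estimates for M379 were 0.08 to 0.67 for PLK1, -0.10 to 0.80 for AURKB and -0.07 to 0.72 for CDT1.

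**Figure D3:**
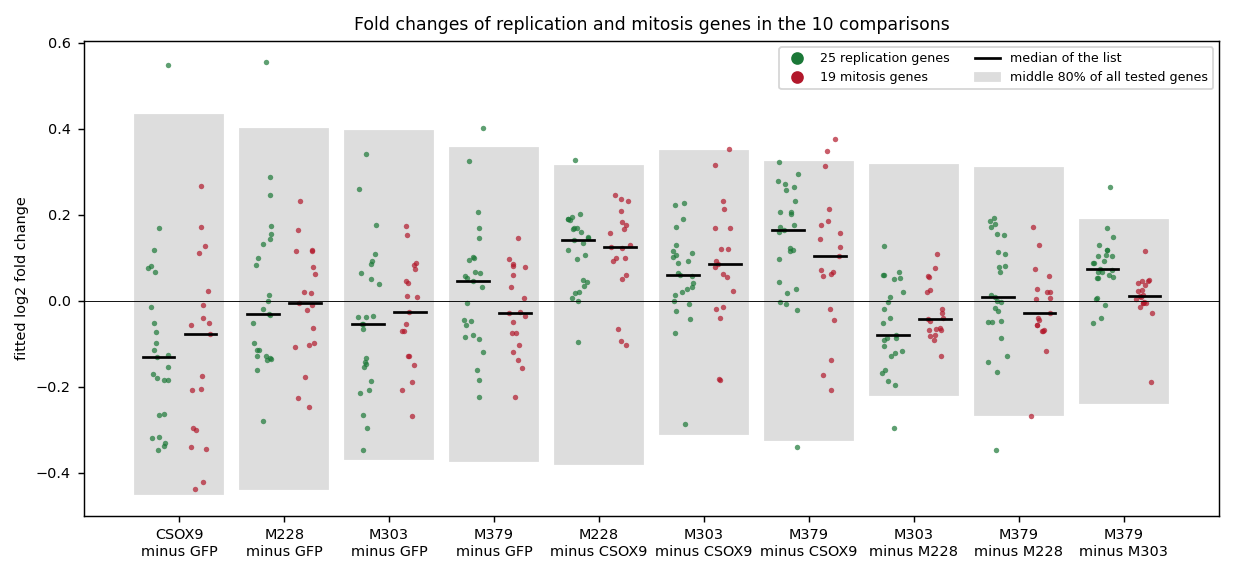
Fitted log2 fold changes of the 25 replication genes (green) and 19 mitosis genes (red) in the 10 comparisons, with the median of each list as a black bar and the middle 80% of all tested genes as a grey box. Most points lie within the boxes, and both medians lie above 0 in the 3 comparisons with CSOX9.

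The mutants were set against one another to ask whether the 3 forms differ. No member was called by edgeR, DESeq2 or limma voom in any of the 3 comparisons, and 0 members reached an unadjusted p under 0.05. Over all tested genes edgeR called 0.0124% for M303 minus M228, 0.0433% for M379 minus M228 and 0% for M379 minus M303, and 2.66%, 3.47% and 0.848% had an unadjusted p under 0.05. The largest mitosis estimates were CDK1 in M303 minus M228 (-0.13 ± 0.13) and CENPE in M379 minus M228 (-0.27 ± 0.26) and in M379 minus M303 (-0.19 ± 0.26). The largest replication estimates were CCNE2 in the comparisons with M228 (-0.29 ± 0.33 for M303 and -0.35 ± 0.34 for M379) and CCNE1 in M379 minus M303 (0.26 ± 0.23). Without overlap of the libraries, M303 lay above M228 for MCM3 (5.14% of all tested genes) and below it for 0 members (3.6%). M379 lay above M228 for MCM3 and E2F1 (5.94%), below it for RFC3 and POLE2 (5.54%), above M303 for POLE and E2F1 (2.28%) and below M303 for 0 members (2.59%). Of the 25 replication genes, 22 had estimates above 0 in M379 minus M303, with a median of 0.07, against -0.01 over all tested genes.

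A single test of any difference among the 5 groups called no member by edgeR, where 0.681% of all tested genes were called, and 0 members had an unadjusted p under 0.05, where 6.85% of all tested genes did. It again called no member without GFP replicate 2, where 1.53% of all tested genes were called, and PLK1 alone had an unadjusted p under 0.05 (edgeR adjusted p = 0.271), where 11.2% did. The intervals give the sizes of change that this model allows. The median half-width of the 95% intervals over the 44 tested members was 0.36 in each of the 10 comparisons on the log2 scale. The model holds 1 estimate of the spread per gene for all 5 groups, so the spread within GFP enters every comparison. Within groups, the median dispersion of the mitosis genes was 0.0895 in GFP and 0.00707 to 0.0135 in the SOX9 groups. The intervals of the comparisons without GFP thus include that wider spread. In each comparison 43 or 44 of the 44 intervals lay wholly within a change of 1 log2 unit, and 23 to 33 within 0.5. The interval of CCNE2 reached furthest from 0, -0.20 to 1.31 for M228 minus GFP and -0.20 to 1.30 for CSOX9 minus GFP. A p that misses the threshold does not show that the levels were equal.

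Genes of the same pathways outside the 45 were counted from lists taken from general knowledge. The lists held 40 other replication genes, 50 other mitosis genes, 26 cell cycle regulators and 21 CDK inhibitors and arrest genes. None of these genes was called by edgeR in any of the 10 comparisons or in the test of any difference. Over all tested genes, 0% to 0.569% were called in the 10 comparisons and 0.681% in that test. Without GFP replicate 2 the test of any difference called 1 of the 26 cell cycle regulators, where 1.53% of all tested genes were called. In CSOX9 minus GFP, unadjusted p-values under 0.05 were reached by 4 other replication and 2 other mitosis genes, all lower in CSOX9, that is 4 of 40 and 2 of 50, where 10.7% of all tested genes did so. These were 2 and 5 without GFP replicate 2, all lower, where 6.23% did. In M379 minus CSOX9 they were reached by 3 of 40 and 4 of 50, all higher in M379, where 4.7% of all tested genes did so. For M228, M303 and M379 against CSOX9 the median was 0.08, 0.05 and 0.09 over the other replication genes, with 36, 28 and 29 of 40 above 0, and 0.12, 0.06 and 0.06 over the other mitosis genes, with 43, 39 and 36 of 50 above 0.

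The libraries numbered 1 differed from those numbered 2 and 3 across the groups. With all libraries, edgeR called the members as a whole no more often than all tested genes. The labels do not say what a replicate number shares, so this compares libraries and no condition, and earlier results of these data had shown that the numbers differ. In a model with group and replicate number, edgeR's quasi-likelihood test called 5 replication genes lower and 1 mitosis gene higher in number 1 than in the mean of numbers 2 and 3. That is 6 of 44, where 17.7% of all tested genes were called, 9.29% higher and 8.36% lower. CDC6 was lower by the largest amount (-0.54 ± 0.07, adjusted p = 0.000454), followed by CCNE1 (-0.43 ± 0.11, adjusted p = 0.0155), FEN1 (-0.39 ± 0.11, adjusted p = 0.0246), CDC45 (-0.33 ± 0.09, adjusted p = 0.0215) and RRM2 (-0.24 ± 0.08, adjusted p = 0.0435), all log2 difference ± SE with edgeR adjusted p. KIF20A was higher (0.27 ± 0.08, adjusted p = 0.0257). At an unadjusted p under 0.05 stood 10 replication genes, all lower, and 4 mitosis genes, 3 higher and 1 lower, where 32.5% of all tested genes did.

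CDC6 held 137 to 177 CPM in the 5 libraries numbered 1 (median 167) and 198 to 266 CPM in the 10 libraries numbered 2 and 3 (median 242), with no overlap. The log2 difference of CDC6 was -0.60 in M228, -0.79 in M303, -0.48 in M379, -0.32 in CSOX9 and -0.53 in GFP. CDC45 also had its lowest level in number 1 in 5 of 5 groups, CCNE1, FEN1 and RRM2 in 4 of 5, and KIF20A had its highest level in number 1 in 5 of 5. CDC45 held 77.9 to 91.9 CPM in libraries numbered 1 and 84.6 to 132 CPM in those numbered 2 and 3, which overlap. The mitosis genes with the largest differences were CDC20 (-0.32 ± 0.11, edgeR adjusted p = 0.0568) and CENPE (0.28 ± 0.15, adjusted p = 0.197), neither of which was called. The median difference was -0.14 over the replication genes and 0.02 over the mitosis genes, against 0.01 over all tested genes. Group by group, the replication median was -0.16 in M228, -0.23 in M303, -0.11 in M379, -0.07 in CSOX9 and -0.20 in GFP. The mitosis median was 0.06, -0.14, 0.07, 0.06 and 0.11 in the same groups.

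**Figure D4:**
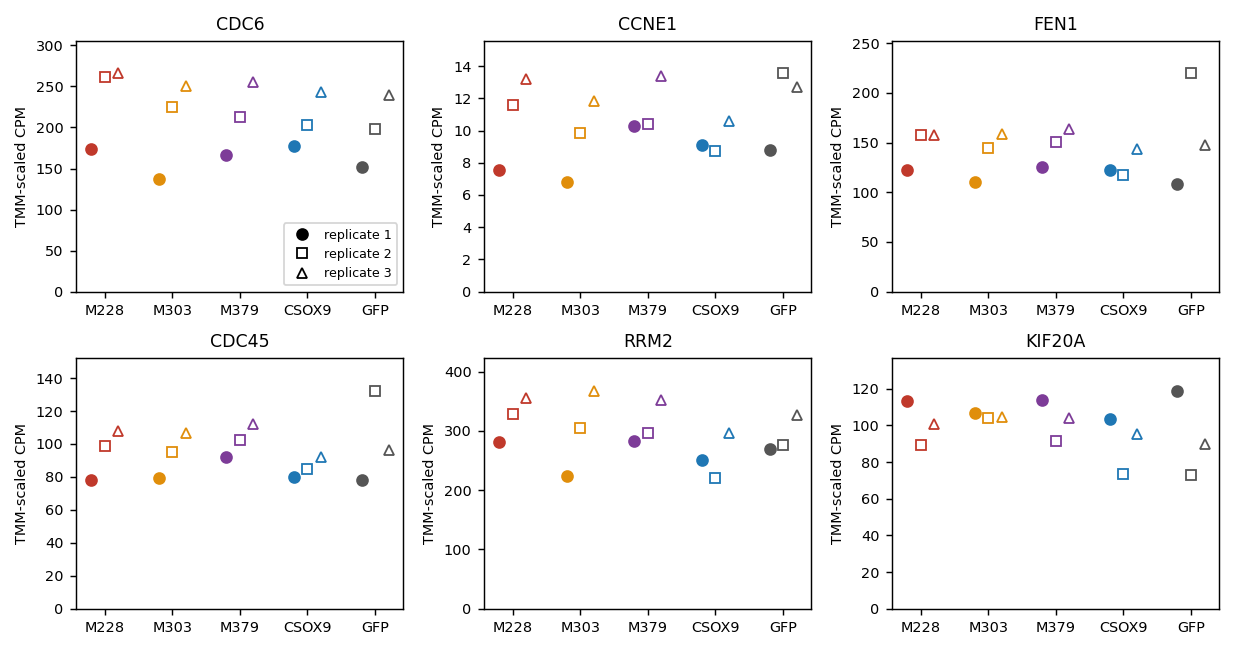
TMM-scaled CPM of the 6 genes called between replicate number 1 (filled circles) and numbers 2 and 3 (open squares and triangles), in each group. CDC6 and CDC45 have the filled circle lowest in all 5 groups, and KIF20A has it highest in all 5.

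The count of called members changed with single libraries, as did the count over all tested genes. Leaving out each of the 15 libraries in turn, CDC6 was called in 15 of 15 fits, CCNE1 in 13, CDC45 and KIF20A in 10 each, FEN1 in 9 and RRM2 in 4. Without GFP replicate 2, 18 members were called, where 34.5% of all tested genes were called. Without M228 replicate 1, 1 member was called, where 8.34% of all tested genes were. Over the 15 fits the number of called members ran from 1 to 18. Over all tested genes the 15 fits called 1102 to 5733, and whether the count of members followed that number was not tested. Limma voom called 19 members, where it called 38.6% of all tested genes, and DESeq2 8, where it called 21.8%. Genes of other lists were counted in the same model, where 9.29% of all tested genes were called higher and 8.36% lower. Of 40 other replication genes 6 were called lower in number 1 and 0 higher, and of 50 other mitosis genes 3 were called higher and 0 lower. Without GFP replicate 2 these counts were 17 lower and 1 higher, and 13 higher and 6 lower, where 18.2% of all tested genes were called higher and 16.3% lower. Of 21 CDK inhibitors and arrest genes 11 were called higher in number 1 and 2 lower, with list medians of 0.27 in M228, 0.33 in M303, 0.31 in M379, 0.22 in CSOX9 and 0.30 in GFP. CDKN1A stood at 71.4, 49.99 and 34.9 CPM in M228, 101.09, 51.6 and 34.0 in M303, 61.1, 42.5 and 35.6 in M379, 52.7, 64.1 and 43.7 in CSOX9, and 83.0, 66.9 and 32.5 in GFP. CDKN1A encodes p21, an inhibitor of cyclin-dependent kinases. The 2 genes of that list called lower in number 1 were PLK2 (-1.03 ± 0.15, edgeR adjusted p = 0.000802) and PLK3 (-0.69 ± 0.11, edgeR adjusted p = 0.00121). CCNG2 stood at 23.6, 16.0 and 7.12 CPM in M228, 24.9, 10.1 and 7.54 in M303, 18.7, 10.3 and 9.10 in M379, 23.3, 16.1 and 9.08 in CSOX9, and 21.3, 6.90 and 6.49 in GFP. CCNG2 encodes a cyclin linked to exit from the cycle, and its level in number 1 was the highest of the 3 in every group. The part of these genes in the difference of the replication genes was not tested.

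**Figure D5:**
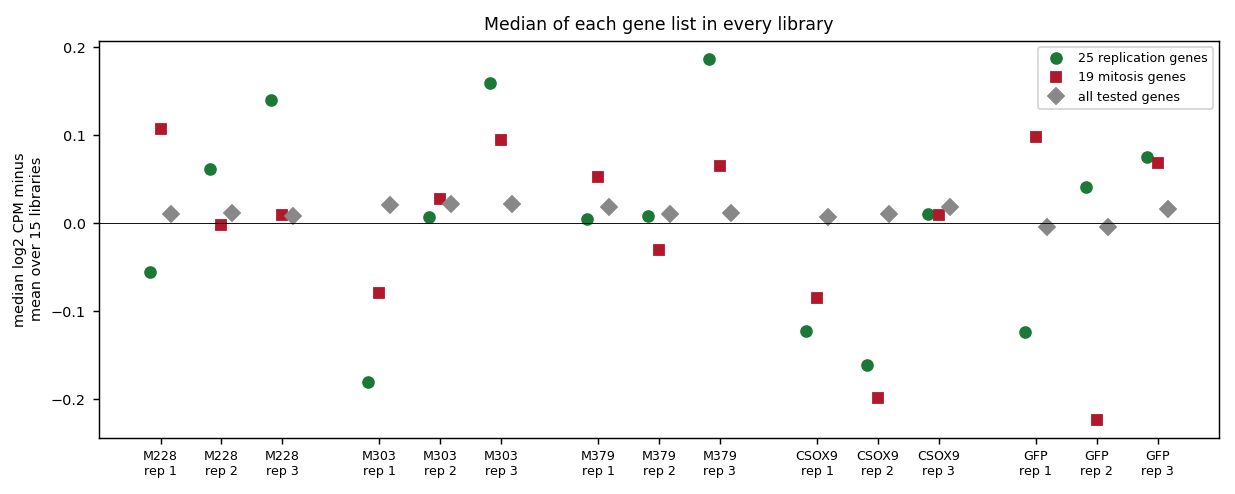
Median over the 25 replication genes (green), the 19 mitosis genes (red) and all tested genes (grey) of each library's log2 CPM minus the gene's mean over the 15 libraries, in M228, M303, M379, CSOX9 and GFP. The replication medians run between -0.18 (M303 replicate 1) and 0.19 (M379 replicate 3), the mitosis medians between 0.11 (M228 replicate 1) and -0.22 (GFP replicate 2), and all tested genes stay near 0.

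Within each list the genes varied together from library to library. After removing group means, the median Pearson correlation of log2 CPM over the 15 libraries was 0.39 over 300 pairs of replication genes, 0.24 over 171 pairs of mitosis genes, 0.16 over 475 pairs across the lists and -0.002 over all pairs of tested genes. Without GFP replicate 2, over 14 libraries, the 3 medians were 0.58, 0.40 and 0.29. The points share libraries, depth and gene length, so these are descriptions. The most alike mitosis pairs were TOP2A with CENPE (0.99) and BUB1B with CENPE (0.97), and the most alike replication pairs CDC45 with FEN1 (0.97) and PCNA with FEN1 (0.97). Without GFP replicate 2 the most alike were CDC6 with FEN1 (0.98) and CDC45 with CCNE1 (0.97) among replication genes, and TOP2A with CENPE (0.92) and BUB1B with KIF20A (0.92) among mitosis genes. The spread within groups was small outside GFP: the median dispersion of the mitosis genes was 0.00707 to 0.0135 in the SOX9 groups and 0.0895 in GFP, and that of the replication genes 0.00726 to 0.0142 in the SOX9 groups and 0.0822 in GFP.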

How the data were processed

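Poly(A)-selected RNA of 15 HT115 libraries was sequenced in 150-base pairs. Per the submitters' processing notes, the aligner was STAR 2.7.0a and the genome hg38. Per the file headers, the counts deposited by the authors are whole reads assigned to genes by featureCounts 2.0.1 with Ensembl 101 (GRCh38), not normalized. That command sets no option for read pairs, strand or overlapping genes, so mates were counted one by one, strand was not used, and reads over exons of 2 genes were not counted. A deposited table of normalized values was not used here, and 3 columns of per-sample values that match no sample were left out. No source used here describes trimming.

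Of 60671 genes, 42020 had a symbol, matched on the Ensembl gene ID. Samples were grouped by their labels. The 45 genes, the other gene lists and the test of replicate numbers were chosen with earlier results of these data known. After filterByExpr and TMM scaling, the counts of all 15 libraries entered 1 model with group means (edgeR 4.0.16, quasi-likelihood, R 4.3.3). All tests are two-sided. Adjusted p-values are Benjamini-Hochberg values over 16160 genes in each comparison, with 0.05 as the limit for a call. The intervals given are 95% intervals. Log2 CPM used a prior count of 2. The steps were tested on simulated data. Genes were named by role, by the largest fold change in each comparison, by the highest and lowest level per kb, by the largest difference of replicate numbers and by the highest correlations. GINS2 was added after its values were seen, as were the genes given at an unadjusted p under 0.05 and CCNG2, CDKN1A, PLK2 and PLK3. Library totals make 3 reads equal 0.0946 CPM in the deepest and 0.982 CPM in the shallowest library, a limit that covers counting error only. No 2 libraries of a group agreed within sampling noise (lowest chi-square per degree of freedom 3.74).

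Alternatives were RLE size factors, no filter on low counts, limma 3.58.1 voom with quality weights, DESeq2 1.42.0, the 2 groups compared alone, the replicate number as a block, libraries 2 and 3 only, and each library left out in turn. Equal replicate numbers were taken to pair the libraries where the deviations from the group means correlated above 0.1 in all 3 pairs. This held between mutants, for every mutant and GFP, and for M303 and CSOX9 (lowest 0.101), but not for M228 or M379 against CSOX9 (lowest 0.0641 and 0.0696) or CSOX9 against GFP (lowest -0.03). Promoter letters come from the RefSeq table of GRCh38.p14.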

Additional observations from a re-analysis of the deposited data

How the results depend on the processing

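The count of 0 called members in each of the 10 comparisons and in the test of any difference was unchanged with RLE size factors, no filter on low counts, DESeq2, the 2 groups alone, the replicate block (0 members in each paired fit), libraries 2 and 3 only and each library left out. The exception was limma voom, with 3 members in M303 minus CSOX9 and 5 in M379 minus CSOX9. For replicate number 1 against 2 and 3, the 6 called members became 19 with voom, and 1 to 18 when a library was left out. Among the estimates named for being the largest of a list, those of AURKB and BIRC5 against GFP changed sign. AURKB in M228 minus GFP was 0.0363 with voom and -0.45 to 0.127 leaving out a library. BIRC5 in M303 minus GFP was 0.0947 with voom and -0.431 to 0.0457 leaving out a library. BIRC5 in M379 minus GFP was 0.0985 with voom and -0.385 to 0.0924 leaving out a library. In each, the highest value among the fits that left out a library was that without GFP replicate 2, and the voom value was above 0 too. The other estimates followed across settings were the largest of a list in each comparison and those named for the replicate numbers. These kept their sign, except BIRC5 and AURKB as given. TOP2A against GFP, which changed direction without GFP replicate 2, was not among those followed. Of the list medians, 3 moved by more than the spread of library medians: mitosis genes in CSOX9 minus GFP with voom (-0.19), mitosis genes in M379 minus GFP without GFP replicate 1 (0.08) and replication genes in M303 minus M228 without M303 replicate 1 (0.05).

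Counts over all tested genes depended more on the setting than those of the members. For CSOX9, M228, M303 and M379 minus GFP, edgeR called 5, 39, 19 and 6 genes, the replicate block 79, 181, 85 and 17, DESeq2 66, 163, 84 and 45, voom 36, 52, 42 and 24, no filter 180, 282, 212 and 74, libraries 2 and 3 only 1, 9, 4 and 3, and the 2 groups alone 0, 3, 2 and 1. For M228, M303 and M379 minus CSOX9, edgeR called 92, 62 and 20, the block 319, 259 and 106, DESeq2 216, 150 and 64, voom 468, 1202 and 707, no filter 320, 273 and 137, libraries 2 and 3 only 21, 7 and 1, and the 2 groups alone 278, 121 and 156. Between mutants, in the order M303 minus M228, M379 minus M228 and M379 minus M303, edgeR called 2, 7 and 0, the block 14, 25 and 0, DESeq2 11, 22 and 0, voom 14, 34 and 1, no filter 47, 48 and 5, and libraries 2 and 3 only 1, 1 and 0. Leaving out a library of either group compared gave 0 to 143 genes in the comparisons with GFP, 1 to 44 in those with CSOX9 and 0 to 4 between mutants. Any difference gave 110 by edgeR, 332 with the block, 343 with DESeq2, 190 with voom, 596 with no filter, 16 in libraries 2 and 3 only, and 22 to 255 without a library. Replicate number 1 gave 2853, with voom 6241, and without a library 1102 to 5733. The causes were not tested. Every comparison with GFP holds GFP replicate 1, the shallowest library, and GFP replicate 2, unless one of them was left out. In the model of all libraries, the GFP libraries also enter the spread used for the comparisons without GFP.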
